A study of Mus musculus with 123 samples.

Results

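Liver transcriptomes of mice fed a diet labelled LFD were compared between Short light and Equal light. The libraries were chosen by their titles, which name the diet, the photoperiod and the zeitgeber time (ZT), and 41 mouse liver libraries of the series met the rule while 82 did not. The 21 Short light libraries comprised 3, 3, 3, 4, 4 and 4 at ZT0, ZT4, ZT8, ZT12, ZT16 and ZT20, and the 20 Equal light libraries comprised 3, 3, 3, 4, 4 and 3. Those 82 came from Long light on LFD and from all 3 photoperiods on a diet labelled HFD. Expression was measured by sequencing polyadenylated RNA, and no knockout, drug or transgene is named. Not stated in the labels are the light hours of each photoperiod, the event that ZT0 marks, the composition of the diets, and the strain, sex, age or identity of the animals. An earlier rhythm and a different event at ZT0 therefore cannot be told apart, and p-values measure the spread between these libraries, which may in part be technical. In bulk liver, fewer cells of a type and less RNA per cell cannot be told apart either.

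The liver clock is a transcriptional feedback loop. The activators encoded by Arntl (BMAL1), Clock and Npas2 bind E-boxes and switch on the Per and Cry genes, whose proteins repress those activators. In the second loop the repressors encoded by Nr1d1 and Nr1d2 (REV-ERB) act on REV-ERB elements, with Arntl a classic target. A further loop is formed by the D-box activators Dbp, Tef and Hlf and the D-box repressor Nfil3. Light resets the brain clock, and feeding time is a strong time cue for the liver. A change of photoperiod is known to alter when the clock genes peak relative to dawn and dusk.

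The elements through which the 3 loops act are shown for the clock genes that carry them close to the start, because the timing results below are ordered by these loops. The windows are those of RefSeq on GRCm38.p6, from 250 bases before to 50 bases after each annotated start. Both strands were searched, and 13 of the 15 clock genes matched a window. The E-box CACGTG stood in 2349 of 32851 windows (7.15%) and in those of Cry1, Per1 and Tef. The D-box TTATGTAA stood in 308 windows (0.938%) and in that of Per3, in 2 copies. The REV-ERB element, AAN followed directly by TAGGTCA, stood in 72 windows (0.219%) and in that of Arntl. The stretches read 5′ to 3′ on the strand of the gene, with the element in capitals. They lie at chr11:69098758-69098813 on the plus strand for Per1, chr10:85185084-85185139 on the minus strand for Cry1, chr15:81802521-81802576 on the plus strand for Tef, chr4:151044796-151044890 on the minus strand for Per3 and chr7:113207529-113207556 on the plus strand for Arntl, the last just after the annotated start. A match is a description of the letters only.
Per1: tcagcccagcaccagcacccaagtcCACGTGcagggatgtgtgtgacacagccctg
Cry1: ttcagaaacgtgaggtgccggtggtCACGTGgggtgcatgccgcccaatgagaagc
Tef: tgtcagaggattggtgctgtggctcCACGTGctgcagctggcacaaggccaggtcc
Per3: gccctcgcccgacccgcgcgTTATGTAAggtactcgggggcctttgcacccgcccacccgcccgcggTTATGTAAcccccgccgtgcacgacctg
Arntl: gaaggcagaAAGTAGGTCAgggacggag

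The libraries held 14.72 to 39.09 M (mega) reads assigned to genes, as recovered from the deposited values (24.21 M at the median). Hepatocyte markers had a mean of 12.15 to 12.61 log2 CPM (log2 of counts scaled to library size) in all 41, and macrophage markers one of 3.15 to 5.17. Markers of tissue from outside the liver varied widely. In 5 libraries, called muscle-rich and pancreas-rich or together tissue-rich, the mean over skeletal muscle or pancreas acinar markers lay above a log2 CPM of 4: muscle in Equal light ZT8 replicate 3 and ZT20 replicate 3, pancreas in Equal light ZT4 replicate 1, Short light ZT8 replicate 2 and Short light ZT16 replicate 1. Others lay just below this limit, with pancreas means of 3.93 in Equal light ZT0 replicate 3, 3.92 in Short light ZT20 replicate 1 and 3.85 in Short light ZT0 replicate 3, and muscle means of 3.70 in Short light ZT12 replicate 4 and 3.52 in Equal light ZT12 replicate 1. The lowest means were -2.66 for pancreas and -3.09 for muscle, so leaving out the 5 does not remove every library with these markers. Replicate numbers only name libraries. A time was also read from the 15 clock genes of each library, against a cosine fitted to the other libraries of its arm. It lay within 2 h of the label in 16 of 20 Equal and 18 of 21 Short light libraries. In 3 libraries it lay more than 4 h away: the library labelled Equal light ZT12 replicate 4 read 19.6 h, that labelled Short light ZT0 replicate 3 read 8.6 h and that labelled Short light ZT16 replicate 4 read 10.3 h. With 6 libraries of the other arms, 9 of the whole series were off by that much, and results are given with all libraries and without these 9. That choice was made after seeing the data and on the clock genes, so the clock results without the 9 libraries are no independent evidence.

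**Figure D1:**
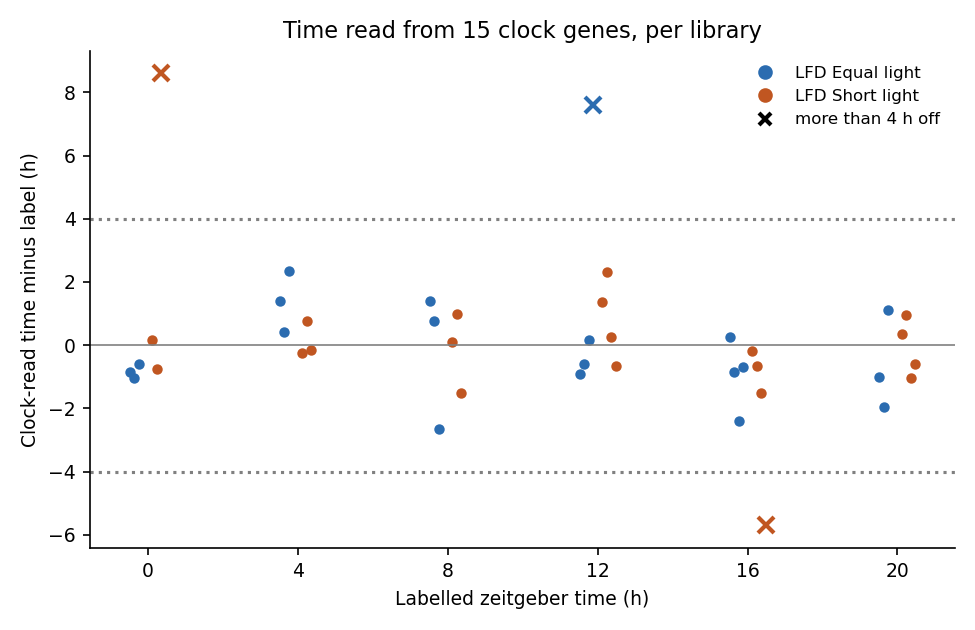
Time read from 15 clock genes minus the labelled zeitgeber time (h, y axis) against the labelled time (h, x axis), 1 point per library, with dotted lines at 4 h either side. Crosses mark the 3 libraries past 4 h, at 7.6 h, 8.6 h and -5.7 h, and all other points lie between the dotted lines.

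The clock of the liver peaked earlier on the ZT scale in Short than in Equal light. Over the 15 clock genes, the mean shift of peak time (Short minus Equal, negative meaning earlier) was -3.33 h with a jackknife standard error (SE) over libraries of 0.344 h (two-sided permutation of arm labels within ZT, p = 2e-05). Without the 9 libraries it was -3.57 h. Peak times and amplitudes come from a 24 h cosine fitted to log2 CPM in each arm with limma, and the amplitude is the height of the peak above the mean. Each of the 15 genes was rhythmic in each arm, and the fitted peak of all 15 was earlier in Short light. The F test of a difference in rhythm between the arms called 524 of 14397 genes tested (3.64%), and 11 of the 15 clock genes were among them, all but Clock, Per1, Per2 and Nfil3. Called means a Benjamini-Hochberg adjusted p from limma below 0.05 here and throughout. Leaving out the 9 libraries, 14 of 15 were called, against 12% of all genes, and without the muscle-rich and pancreas-rich libraries 6 of 15, when Npas2 (adjusted p = 0.0552), Per3 (0.0537), Cry1 (0.0634) and Hlf (0.0866) were among those that missed.

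Among the activators, Arntl peaked at 20.1 h in Equal light and at 17.3 h in Short light. At ZT0 its 3 Equal light libraries lay at 5.34, 5.24 and 5.37 log2 CPM and its 3 Short light libraries at 3.33, 4.19 and 2.88. At ZT12 the Equal light libraries lay at 1.59, 1.27, 2.91 and 5.40 and the Short light libraries at 4.8, 4.95, 4.71 and 4.27. The arms did not overlap at ZT0, with Equal light high, and at ZT12 Short light was high apart from the library labelled Equal light ZT12 replicate 4, whose clock read 19.6 h. The shift of Arntl was -2.79 ± 0.67 h (SE; adjusted p of the rhythm difference 0.0194). Npas2, the Clock paralogue that can pair with BMAL1, showed at ZT0 4.31, 4.38 and 3.58 log2 CPM in Equal light against 1.47, 2.12 and -2.04 in Short light, again without overlap. Its shift was -3.51 ± 0.82 h (adjusted p = 0.0238). Clock, with the smallest oscillation of the 3 activators, had a shift of -2.57 ± 0.86 h and missed the threshold (adjusted p = 0.13).

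Of the 5 repressors of the first loop, 3 had a called rhythm difference. Per3 at ZT0 lay at 2.01, 1.41 and 1.56 log2 CPM in Equal light and at 4.50, 4.55 and 5.92 in Short light, and the arms were well separated. The difference at ZT0 was 3.33 ± 0.63 (SE; adjusted p = 0.00344), and at ZT20 the order turned round, with 3.18, 3.23 and 2.14 in Equal light against 0.97, 1.98, 1.2 and 0.50 in Short light. Cry1, which peaks late in the cycle, lay at ZT8 at 3.47, 2.98 and 2.91 in Equal light and at 4.2, 4.77 and 3.80 in Short light. Each Short light library exceeded each Equal light library. The shifts were -3.09 ± 0.79 h for Per3 (adjusted p of the rhythm difference 0.035) and -2.94 ± 0.66 h for Cry1 (0.0188). Cry2, a cryptochrome with a shallow rhythm, shifted by -4.60 ± 1.07 h (0.0203), and its ZT0 values of 5.13, 4.8 and 4.28 in Equal light lay below the 5.66, 5.75 and 5.72 of Short light. Per1 and Per2, the 2 period genes that light and systemic signals can induce directly, had shifts of -2.18 ± 1.28 h and -2.03 ± 0.79 h, and neither rhythm difference passed (adjusted p = 0.499 and 0.158).

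In the second loop, Nr1d1 had 7.55, 7.24 and 4.16 log2 CPM at ZT0 in Short light against 4.76, 4.47 and 2.43 in Equal light. The low Short light value is that of the library labelled ZT0 replicate 3, whose clock read 8.6 h, and it is the only one to overlap with Equal light. At ZT20 Nr1d1 lay at 1.5, 0.94 and 3.32 in Equal light and at 6.40, 5.53, 4.54 and 4.59 in Short light, with no overlap. At ZT8 the order was the opposite, with 5.77, 6.38 and 6.98 in Equal light and 5.03, 5.06 and 4.97 in Short light. The peak of Nr1d1 thus stood at 6.0 h in Equal and 2.0 h in Short light, a shift of -3.96 ± 0.72 h and the smallest adjusted p of the 15 (0.0048). Its paralogue Nr1d2 shifted by -3.84 ± 0.78 h (0.00897).

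**Figure D2:**
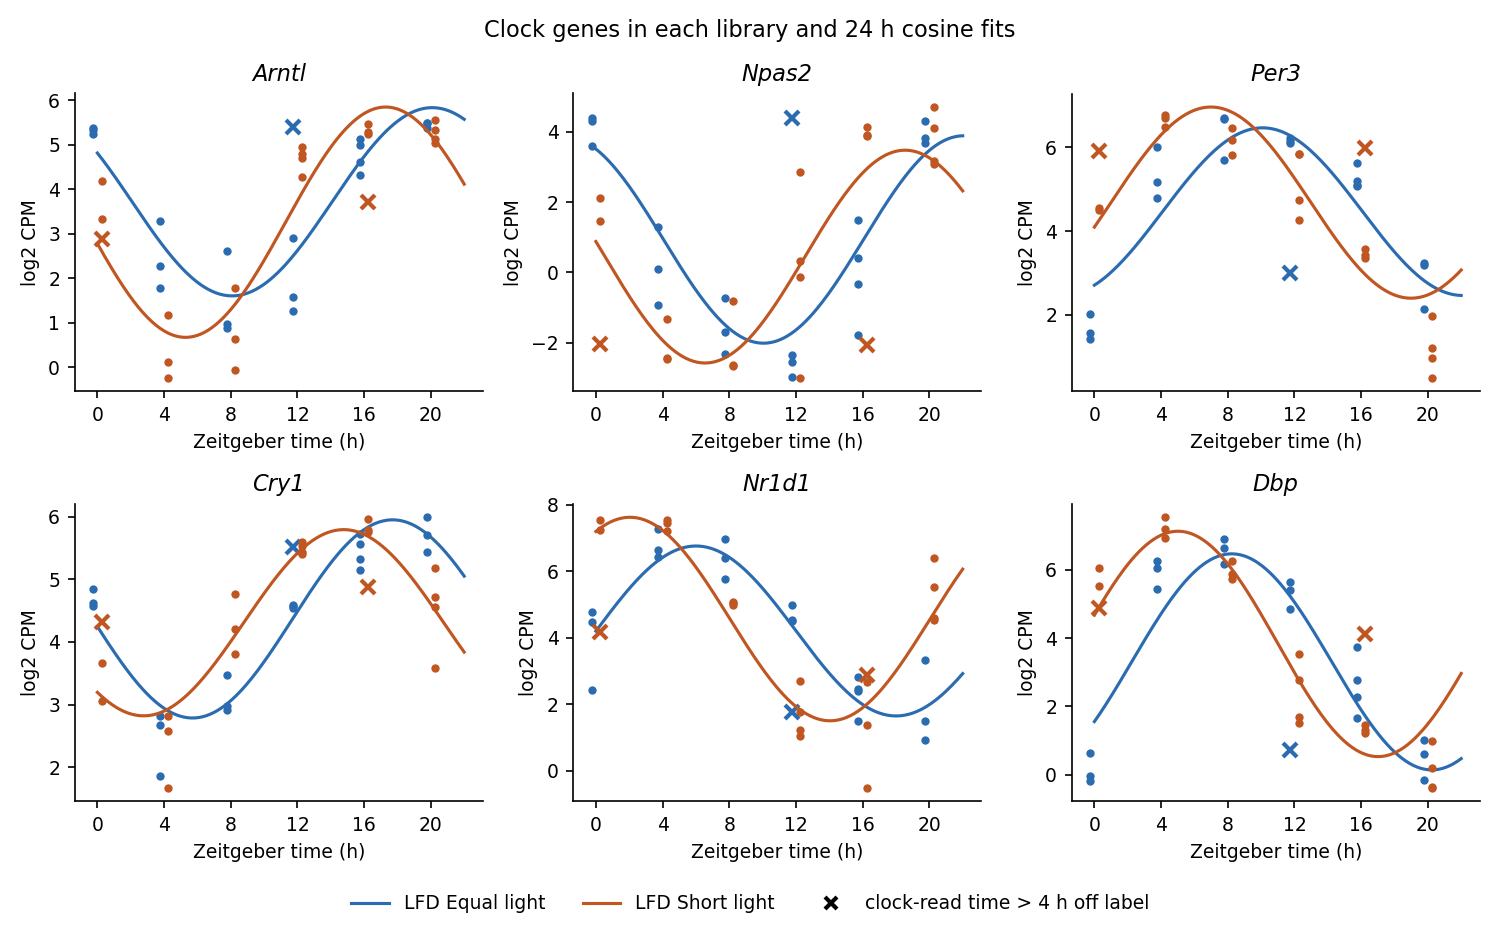
Level (log2 CPM, y axis) against zeitgeber time (h, x axis) for 6 clock genes, 1 point per library, crosses for the libraries whose clock-read time is more than 4 h off the label, and curves for the 24 h cosine of each arm. The Short light curve peaks before the Equal light curve in each panel, for Nr1d1 at 2.0 h against 6.0 h and for Arntl at 17.3 h against 20.1 h.

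The D-box activators stood far apart between the arms at ZT0. Dbp at ZT0 lay at 0.62, -0.03 and -0.19 log2 CPM in Equal light and at 6.05, 5.53 and 4.89 in Short light, a difference of 5.36 ± 0.91 (SE; adjusted p = 0.000349). Equal light was thus in the trough of Dbp while Short light was well on the way up, since the fitted peaks stood at 8.2 h and 5.0 h. Tef at ZT0 lay at 5.57, 5.58 and 4.78 in Equal light and at 7.34, 7.13 and 8.02 in Short light, again without overlap (difference 2.18 ± 0.36, adjusted p = 0.000327). Shifts were -3.22 ± 0.68 h for Dbp and -3.77 ± 0.77 h for Tef. Hlf, the third member of the family, had the largest shift of the 15, -6.59 ± 1.33 h, on a shallow rhythm (amplitude 0.43 in Equal and 0.36 in Short light, log2). Nfil3, the repressor of the same elements, had the smallest shift, -1.95 ± 0.85 h, and missed the threshold (adjusted p = 0.274).

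**Figure D3:**
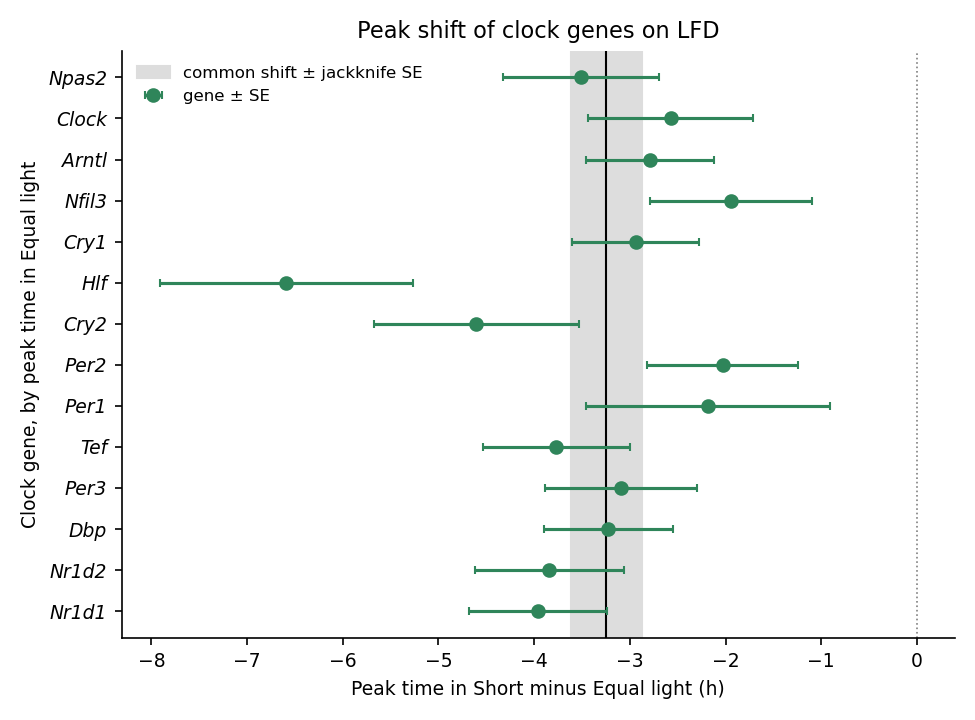
Shift of peak time in Short minus Equal light (h, x axis) for 14 of the clock genes, ordered by their peak in Equal light (y axis), with bars of 1 SE; the vertical line and band give the common shift of -3.25 h and its jackknife SE of 0.370 h. All 14 points lie left of 0, from -6.59 h for Hlf to -1.95 h for Nfil3.

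The shift was shared by rhythmic genes outside the clock. A reference set was taken from the 4 arms not compared here. It held the 732 genes called rhythmic in each of Long light on LFD and Equal, Long and Short light on HFD. Among the 732 were 13 of the 15 clock genes. The median shift of the 732 genes, called the common shift, was -3.25 h (jackknife SE 0.370 h; permutation of arm labels within ZT, p = 1e-05, the smallest that 100000 permutations can give). Leaving out any 1 of the 41 libraries kept it between -3.39 and -3.05 h, and without the 9 libraries it was -3.46 h over the 1258 reference genes found then. Of the 732 genes, 714 (97.5%) peaked earlier in Short light and 18 later. The middle 50% lay between -4.13 and -2.35 h, and 616 (84.2%) lay within 2 h of the common shift, where the median SE of 1 gene was 1.18 h. Amplitudes were much alike, with a median of 0.41 in Equal and 0.42 in Short light (log2), larger in Short light for 419 genes and smaller for 313.

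The median shift varied with the time of the peak. Reference genes with an Equal light peak from 16 to 20 h had a median shift of -2.48 h (132 genes) and those from 20 to 24 h one of -3.07 h (211 genes). The genes peaking from 0 to 4 h had the largest, -4.05 h (62 genes), and the bins between 4 and 16 h lay at -3.16, -3.70 and -3.92 h. These medians carry no test.

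Named reference genes outside the clock gave shifts like those of the clock. The 6 with the largest mean amplitude were Cdkn1a (the cell cycle inhibitor p21), Usp2 (a ubiquitin protease), Elovl3 (a fatty acid elongase), Loxl4 (a lysyl oxidase), Clic3 (an intracellular chloride channel protein) and Chka (choline kinase). Their shifts were -3.38 ± 0.84, -3.87 ± 0.91, -2.07 ± 0.81, -3.97 ± 0.86, -3.65 ± 0.96 and -3.61 ± 0.75 h in this order. The rhythm difference passed for Cdkn1a, Usp2, Loxl4 and Chka (adjusted p = 0.0311, 0.0251, 0.0121 and 0.0105) and missed for Elovl3 (0.101) and Clic3 (0.0504). Without the tissue-rich libraries it was lost for Cdkn1a (0.0654) and Usp2 (0.104). Usp2 at ZT4 lay at 3.0, 2.05 and 3.49 log2 CPM in Equal light and at 5.24, 5.84 and 5.21 in Short light, with all Short light libraries above. A list of further clock output genes had 15 reference genes with a median shift of -3.38 h, all earlier, and 6 of its 18 measured genes were called for a rhythm difference, against 3.64% of all genes (14 without the 9 libraries, 2 without the tissue-rich ones). Among them Tspan4, a tetraspanin, moved from 14.5 to 10.6 h (adjusted p = 0.00832, and 0.0595 without the tissue-rich libraries) and Leo1, a subunit of the PAF1 transcription complex, from 19.9 to 16.6 h (0.0233).

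**Figure D4:**
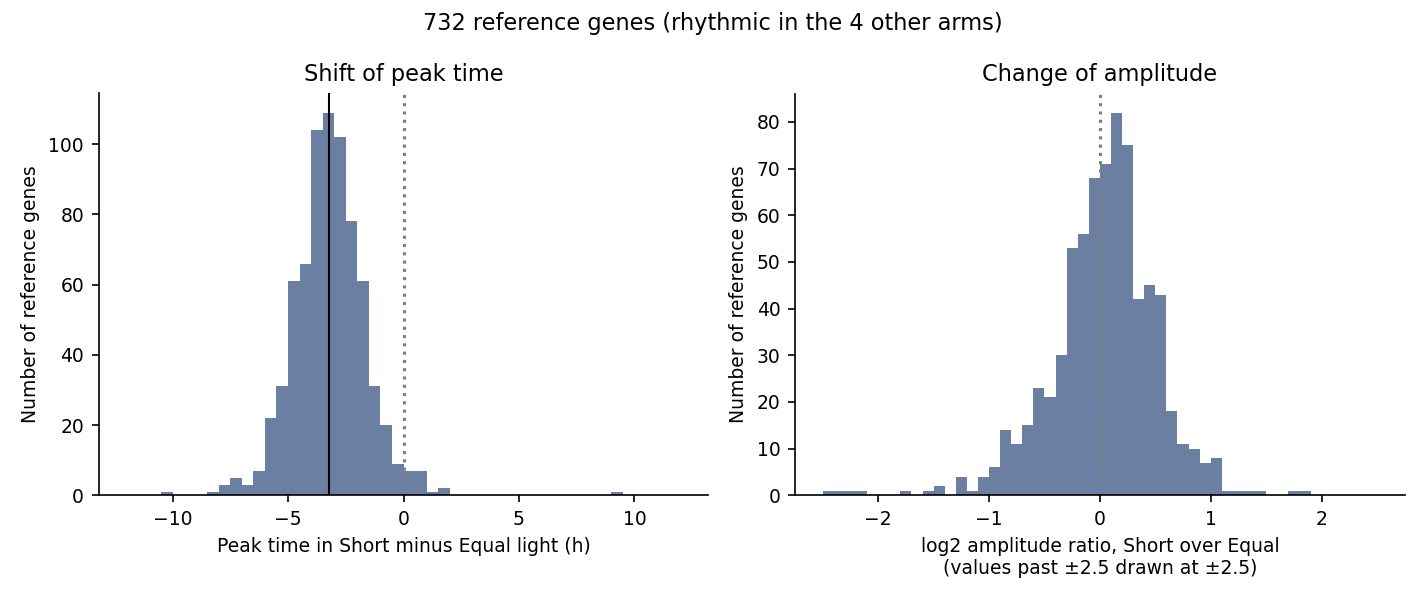
Numbers of reference genes (y axes) by shift of peak time in Short minus Equal light (h, left) and by log2 amplitude ratio, Short over Equal (right; ratios past 2.5 are drawn at 2.5). The solid line marks the common shift of -3.25 h, and 714 of the 732 genes lie below 0 h on the left, while the ratios centre on 0.08.

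Rhythms called in each arm numbered 3012 in Equal light (20.9% of genes tested) and 3906 in Short light (27.1%). The 1727 genes called in both were 57.3% of the Equal and 44.2% of the Short light genes. Of the 524 genes with a rhythm difference on ZT, 174 were reference genes and 350 were not. Without the 9 libraries 1723 genes were called, and without the muscle-rich and pancreas-rich libraries 244. Fewer still were called with only the 41 libraries in the fit. Leaving out replicate 1 of every group ended all calls. The genes with the smallest p were named after their values were seen. Fdx1, which encodes the ferredoxin that carries electrons to mitochondrial P450 enzymes, peaked at 11.9 h in Equal and 6.0 h in Short light. Its ZT4 values were 5.88, 6.14 and 5.95 log2 CPM in Equal light and 6.43, 6.87 and 6.57 in Short light, without overlap, and the shift was -5.95 ± 0.94 h (adjusted p = 0.00294). Aqp11, an intracellular aquaporin, and Gab1, a docking protein of receptor tyrosine kinases, followed with -4.90 and -6.35 h (both 0.00295).

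The lists of glycolysis, fatty acid oxidation and bile acid genes held 2 rhythm differences each, where 3.64% of all genes were called. In the glycolysis and glycogen list 13 genes were rhythmic in Equal and 16 in Short light of 20 measured, and 2 of the 20 were called for a rhythm difference. Gys2, the liver glycogen synthase, lay at ZT0 at 6.89, 7.08 and 6.33 log2 CPM in Equal light and at 7.96, 7.62 and 8.29 in Short light, and its peak moved from 10.3 to 6.8 h (shift -3.55 ± 0.73 h, adjusted p = 0.0048). Slc2a2, the glucose transporter GLUT2, moved from 9.0 to 4.5 h (-4.56 ± 0.91 h, 0.0105). In fatty acid oxidation and ketogenesis 2 of 28 genes were called. Pdk4, the kinase that closes pyruvate dehydrogenase in fasting, lay at ZT0 at 5.62, 4.29 and 5.48 in Equal light and at 2.78, 3.70 and 2.99 in Short light, without overlap, with a shift of -4.88 ± 1.37 h (0.0127). Ppara, the fatty acid sensing receptor, shifted by -6.95 ± 1.54 h (0.0258). In the bile acid list 2 of 18 were called, the canalicular transporters Abcc2 (-4.78 h, 0.0282) and Abcg8 (-4.09 h, 0.035).

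Drug metabolism genes had 4 of 20 measured members called for a rhythm difference (3.64% of all genes), 0 of them without the tissue-rich libraries, when 244 genes were called in all. Por, the reductase that feeds electrons to microsomal P450 enzymes, shifted by -5.02 ± 1.13 h (adjusted p = 0.0202) and Cyp2a5 by -3.93 ± 0.95 h (0.0258). In the growth hormone axis and sex-biased list 3 of 22 measured genes were called against the same share of all genes, and also 3 without those libraries. They were the growth hormone receptor Ghr, the sulfotransferase Sult2a8 and the P450 Cyp2d9, whose fitted shifts of -9.36 ± 1.6, -10.70 ± 1.96 and -9.39 ± 1.97 h were large on shallow rhythms. At ZT0 Sult2a8 lay at 9.22, 9.55 and 4.57 log2 CPM in Equal light and at 10.04, 9.93 and 9.74 in Short light. The low value is that of Equal light ZT0 replicate 3, which is also the lowest at ZT0 for Ghr (8.27, against 9.09 and 9.23), and whose pancreas markers had a mean of 3.93 log2 CPM. Its part in the result was not tested.

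In the heat shock and temperature list 9 of 19 genes were called rhythmic in Equal and 18 in Short light (12 and 18 without the 9 libraries), where the shares of all genes were 20.9% and 27.1%. The difference in number was not itself tested. Its 5 rhythm differences (3.64% of all genes; 13 without the 9 libraries, 3 without the muscle-rich and pancreas-rich ones) included the HSP90 genes Hsp90ab1 and Hsp90aa1 and the HSP90 co-chaperone Ahsa1. Hsp90ab1 at ZT12 lay at 9.62, 9.37, 9.49 and 9.75 log2 CPM in Equal light and at 10.30, 10.36, 10.02 and 10.34 in Short light, with each Short light library above each Equal light one. At ZT16 the Equal light libraries had reached 10.24, 10.10, 9.67 and 10.18, and Short light lay at 9.92, 9.62, 10.11 and 9.56. The peaks stood at 18.2 h and 12.2 h (shift -5.99 ± 1.17 h, adjusted p = 0.00932). Ribosome biogenesis genes, which make and process ribosomal RNA, were called rhythmic in 4 of 20 in Equal and 12 of 20 in Short light against the same shares of all genes, also with no test of the difference in number, and 0 of them had a rhythm difference that passed in limma, while 1 passed without the 9 libraries.

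After the Equal light rhythms were turned by the common shift, no gene was called as departing from it with all libraries. The shift of 1 reference gene had a median SE of 1.18 h, so small departures could be missed. The F test that the Short light coefficients equal the turned Equal light coefficients called 0 of 14397 genes (0%) with limma, 1259 had an unadjusted p below 0.05 (8.74%), and voom on recovered reads also called 0. Of the 524 genes with a rhythm difference on ZT, 0 were called by this test and 232 had an unadjusted p below 0.05. The 524 were chosen with the same coefficients, so the number of 232 is no independent evidence of departures. Splitting the departure into amplitude and timing called 0 genes each (0%), with 1127 and 1046 at an unadjusted p below 0.05. Of the amplitude differences at that level, 661 were larger in Short and 466 in Equal light. Without the muscle-rich and pancreas-rich libraries 1 gene, Gm28151, was called both for the departure and for amplitude. Without the 9 libraries the departure stayed at 0 calls, but 1760 genes had an unadjusted p below 0.05 (12.2%). In that fit 2 genes passed for amplitude (Snhg12 and Yy1) and 1 for timing (Gm40264). These 3 were seen only after the test, and Yy1, the zinc finger transcription factor, had an amplitude of 0.02 in Equal and 0.22 in Short light (log2) with all libraries.

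The genes with the smallest departure p all missed the threshold. They were Snhg12, Rassf1, Tapt1 and Msh3 (adjusted p = 0.189 each) and Kansl2, Bag4, Ppcs and Rbm33 (0.322 each). They were picked by this p, a choice that favours shifts far from the common one. Their shifts were 8.72, 4.65, 6.97, 2.97, 8.95, -10.20, 6.12 and -11.12 h. On HFD the same comparison gave -11.18, -0.94, -11.96, -0.83, -0.04, -7.85, 0.17 and -6.03 h. Shifts run round a 24 h cycle, so the sign of a large shift does not tell earlier from later. The diet interaction of the rhythm difference called 0 genes. Among the 15 clock genes, Hlf was the only 1 with an unadjusted departure p below 0.05 (adjusted p = 0.566). In the fit without the 9 libraries there were 4, namely Nr1d1, Per2, Nr1d2 and Hlf (adjusted p = 0.203, 0.316, 0.352 and 0.368), of which Per2 shifted less than the common shift and the others more.

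Among the 732 reference genes 44 (6.01%) had an unadjusted departure p below 0.05. In the HFD arms, which the choice of these 44 did not use but which helped to choose the reference set, 24 of the 44 (54.5%) lay on the same side of the HFD common shift, against 420 of all 732 (57.4%). The share among the 44 was thus no higher than among reference genes at large. A few of the late ones, picked after their values were seen, show the form this took. Noct, the clock-controlled gene of nocturnin, lay at ZT12 at 7.02, 6.85, 5.67 and 3.66 log2 CPM in Equal light and at 5.23, 5.29, 5.70 and 5.22 in Short light. The groups overlapped, and the lowest value is again that of the library labelled Equal light ZT12 replicate 4. The shift of Noct was 0.89 ± 1.43 h on LFD (departure, adjusted p = 0.48) and -3.92 h on HFD. Cpeb4, which binds messenger RNA and regulates its translation, had 0.69 ± 1.08 h on LFD (adjusted p = 0.403) and -1.97 h on HFD.

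Levels averaged over the 6 times differed for 1 gene of 14397 (0.00695%). C2cd5, which encodes a C2 domain protein of insulin-stimulated glucose transport, lies on chromosome 6 from 143010920 to 143100141 on the minus strand (GRCm38). In Equal light its libraries lay at 3.50, 3.46 and 3.84 log2 CPM at ZT0 and at 3.39, 3.32 and 3.29 at ZT8. In Short light they lay at 3.22, 3.29 and 2.70 and at 2.85, 2.39 and 2.90, below Equal light at both times, while at ZT16 the arms overlapped (3.06 to 3.12 against 2.98 to 3.25). The mean difference was -0.29 ± 0.06 log2 (SE, adjusted p = 0.0202). The call was lost without the 9 libraries (0.143) and without the muscle-rich and pancreas-rich libraries (0.248). It was also lost with only the 41 libraries in the fit. The width of the 95% interval was small for most genes, with a median half-width of 0.158 log2 and values under 0.5 for 95.8% of genes. At an unadjusted p below 0.05 there were 822 genes higher in Short light (5.71%) and 932 lower (6.47%).

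The next 9 genes by p missed the threshold, with adjusted p from 0.0738 to 0.181. They were lower in Short light for Ttll1 (-0.38) and Plekhb2 (-0.17), and higher for Eif1 (0.21), Plpp3 (0.30), Cyp4a32 (0.93), Rab43 (0.55), Pcsk4 (0.68), Nr1h4 (0.22) and Slc27a2 (0.35, all log2). Cyp4a32 is a fatty acid hydroxylase, Nr1h4 the bile acid receptor FXR and Slc27a2 a fatty acid transporter. Cyp4a32 belongs to a family of near-identical genes, so reads could be split among copies. In the fatty acid oxidation and ketogenesis list 27 of 28 genes had a positive difference, against 6493 of 14397 genes tested. The median was 0.16 against -0.01 over all genes, and 0 were called (0.00695% of all genes). Higher at an unadjusted p below 0.05 were 18 of the 28, against 5.71% of all genes. Such a p was found for 6 of the 28 without the 9 libraries (4.91% of all genes) and for 16 without the muscle-rich and pancreas-rich libraries. Its leading genes were the mitochondrial carnitine carrier Slc25a20 (0.27) and the peroxisomal thiolase Acaa1a (0.31). The median of the cell cycle list was -0.29 and that of cholesterol synthesis -0.22, with 0 calls each. Pancreas acinar markers had a median of 2.28 and muscle markers one of -0.34. The library mean of the pancreas markers was -2.66 to 8.01 log2 CPM in Equal light and -2.60 to 7.10 in Short light. These ranges were alike, but the median library mean was -2.12 in Equal and 0.41 in Short light. Of the 13 measured pancreas markers, 11 were higher in Short light at an unadjusted p below 0.05 (5.71% of all genes), and 0 were called. Without the muscle-rich and pancreas-rich libraries there were also 11, with a median difference of 1.97. The part of such tissue in the level results was not tested.

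At single times, the largest number of differing genes was found at ZT8. There 688 of 14397 genes were called (4.78%), 352 higher (2.44%) and 336 lower (2.33%) in Short light, 173 of them by more than 2-fold. At ZT0 144 genes were called (1%), 84 higher (0.583%) and 60 lower (0.417%), at ZT12 32 (0.222%), at ZT16 1 (0.00695%) and at ZT4 and ZT20 0 (0%), where limma gave 1557 and 837 unadjusted p below 0.05 and voom also called 0. Without the 9 libraries the calls were 271 at ZT0 (1.88%), 66 at ZT4 (0.458%), 1110 at ZT8 (7.71%), 474 at ZT12 (3.29%), 46 at ZT16 (0.32%) and 2 at ZT20 (0.0139%, among them Nr1d1). Higher in Short light were 141 (0.979%), 40 (0.278%), 567 (3.94%) and 246 (1.71%) of those at the first 4 of these times. With all libraries 92 of the ZT8 calls (13.4%) were reference genes, which made up 5.08% of all genes tested. Of the 15 clock genes 0 were called at ZT8, where 4.78% of all genes were, too few genes for this to tell. Without the 9 libraries 3 of the 15 were called, against 7.71% of all genes. A rhythm difference was called for 99 of the 688 genes called at ZT8 (14.4%), against 3.64% of all genes. Both calls used the same ZT8 libraries, so this overlap is no independent evidence. A difference at 1 time does not tell a change of level from a shift of the peak. Without the muscle-rich and pancreas-rich libraries, which leaves 2 libraries an arm at that time, 29 genes were called at ZT8, and without replicate 1 of every group 6. At ZT8 the muscle markers had a mean of 5.0 log2 CPM in Equal light replicate 3 (-3.04 and 0.21 in the other 2), and the pancreas markers 7.10 in Short light replicate 2 (-2.41 and 0.02). The part of these tissues in the ZT8 calls was not tested.

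**Figure D5:**
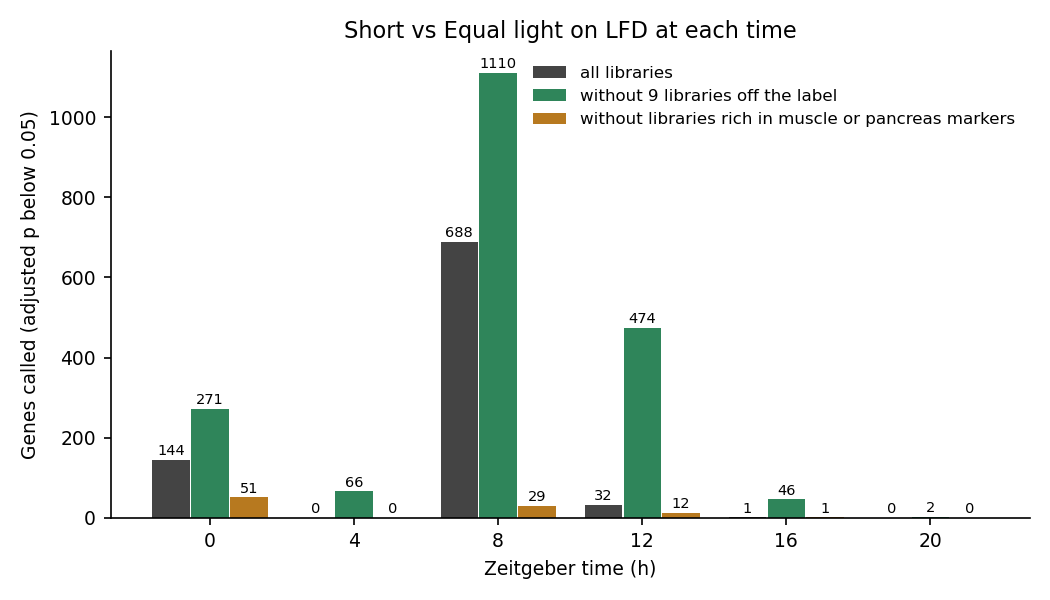
Number of genes called between Short and Equal light (y axis) at each zeitgeber time (h, x axis), with all libraries (grey), without the 9 libraries off the label (green) and without those rich in muscle or pancreas markers (brown). ZT8 is highest with all libraries (688) and without the 9 (1110), and falls to 29 without the tissue-rich libraries, when ZT0 has 51.

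At ZT8 all 20 measured ribosome biogenesis genes were positive (higher in Short light), 9 rose in Short light (against 2.44% of all genes), 0 fell, and the median difference was 0.49 against -0.02 over all genes. Without the muscle-rich and pancreas-rich libraries 2 of the 20 were called. Averaged over the 6 times, the median difference of this list was 0.01. At an unadjusted p below 0.05, 0 of the 20 were then higher and 1 lower (5.71% and 6.47% of all genes). Polr1b, a large subunit of RNA polymerase I, lay at 4.09, 4.04 and 4.16 log2 CPM in Equal light and at 4.92, 5.11 and 4.91 in Short light, tight within each arm and well apart. The rise was 0.88 ± 0.14 (SE; adjusted p = 0.000194, and 0.00873 without the tissue-rich libraries). Outside the list, Gar1, a protein of the particles that pseudouridylate ribosomal RNA and the gene with the smallest p at ZT8, lay at 2.05, 1.58 and 1.80 and at 3.0, 2.96 and 2.87 (1.13 ± 0.17, adjusted p = 2.99e-05, 0.00778 without those libraries). Nop56, a core box C/D protein, lay at 4.37, 3.63 and 4.07 and at 5.35, 5.27 and 5.10, and rose by 1.21 ± 0.24 (0.00207, 0.0371 without). Nop2, of the list, and Rrs1, outside it, are ribosome assembly factors that rose by 1.19 and 1.01, and their calls were lost without the tissue-rich libraries (0.0993 and 0.0744).

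Some stress and glucocorticoid targets also rose at ZT8. In the heat shock list 3 of 19 rose (against 2.44% of all genes), 17 were positive and 1 passed without the tissue-rich libraries. Hspa1b, an inducible HSP70, lay at 1.76, 0.04 and 2.06 log2 CPM in Equal light and at 5.26, 4.43 and 3.80 in Short light, so that the lowest Short light library stood above the highest Equal light one. It rose by 3.21 ± 0.64 (SE; adjusted p = 0.00232, 0.0212 without the tissue-rich libraries). Its near-identical neighbour Hspa1a rose by 2.79 ± 0.68 (0.0112, 0.068 without), and reads may be shared between the 2. The J-domain co-chaperone Dnajb1 rose by 1.19 ± 0.27 (0.00778, 0.068 without). In the glucocorticoid response list 3 of 16 rose (again against 2.44%), and 1 without the tissue-rich libraries. Fkbp5, an HSP90 co-chaperone and classic glucocorticoid target, lay at 4.8, 4.11 and 4.11 in Equal light and at 6.94, 7.35 and 6.73 in Short light. The arms were far apart, by 2.67 ± 0.46 (0.000401, 0.0435 without). Fkbp5 is a reference gene, and its fitted peak stood at 14.9 h in Equal and 9.2 h in Short light. Zbtb16 rose by 2.25 (0.0208) and Dusp1, a MAP kinase phosphatase, by 1.45 (0.0441), and both calls were lost without those libraries (0.259 and 0.204).

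Lipid and bile acid genes at ZT8 went both ways. The lipid droplet list had 3 genes that rose and 1 that fell of 19 measured (2.44% and 2.33% of all genes), 0 in either direction without the tissue-rich libraries. Plin5, a droplet coat protein of oxidative tissues, lay at 4.94, 4.43 and 4.63 log2 CPM in Equal light and at 6.37, 6.19 and 5.66 in Short light, without overlap (1.40 ± 0.33 SE, adjusted p = 0.00907). Fitm2, which partitions triglyceride into droplets, rose by 1.07 ± 0.26 (0.0115) and G0s2, an inhibitor of the lipase ATGL, by 2.10 ± 0.57 (0.0204). Cyp7a1, the rate-limiting enzyme of bile acid synthesis, lay at 2.74, 5.25 and 5.56 in Equal light and at 7.05, 8.57 and 7.15 in Short light. It rose by 3.07 ± 0.85 (0.0225). The bile salt export pump Abcb11 fell by 0.99 (0.0203), from 9.57, 9.33 and 9.76 to 8.40, 8.16 and 9.13. Gpam, which starts glycerolipid synthesis, fell by 2.08 (0.0488). Without the tissue-rich libraries the calls of Cyp7a1, Abcb11 and Gpam were lost (adjusted p = 0.191, 0.419 and 0.236). Of the genes named here Plin5 and Abcb11 are reference genes. Their fitted peaks moved from 17.3 to 13.6 h and from 0.9 to 20.9 h.

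Cholesterol synthesis had 1 positive difference among 24 genes at ZT8 and a median of -1.01, and 0 genes were called with limma (4 fell without the 9 libraries). Hmgcs1, the cytosolic synthase at the head of the pathway, lay at 9.04, 7.70 and 7.38 log2 CPM in Equal light and at 5.51, 4.86 and 7.67 in Short light. The groups overlapped through Short light replicate 3, and the difference of -2.03 missed the threshold (adjusted p = 0.0645). Without the tissue-rich libraries the list median was -0.81.

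The genes with the smallest p among those lower in Short light at ZT8 belonged to no list. Capn2, a calcium-dependent protease, lay at 5.75, 5.49 and 5.78 log2 CPM in Equal light and at 4.85, 4.54 and 5.21 in Short light (adjusted p = 0.000558, 0.137 without the tissue-rich libraries). Svil, an actin-binding protein, lay at 6.97, 6.73 and 6.22 and at 5.15, 4.82 and 5.70 (0.000629, 0.00873 without). Sgk2, a kinase related to SGK1, lay at 6.60, 6.31 and 6.0 and at 4.50, 4.44 and 4.75 (0.00207, 0.0415 without). The fitted peaks of the reference genes Capn2 and Sgk2 moved from 1.3 to 20.3 h and from 4.7 to 23.6 h. Without the tissue-rich libraries the fitted shift of Svil was 7.71 h. Capn2, Svil and Sgk2 were each lower in every Short light library than in any Equal light one. They were followed by Wdr59, Ston2, Pxdn, Mfsd6, Rfx5, Dennd3 and Myo10, with log2 differences from -1.09 to -0.54. Of these 7, Ston2, Pxdn, Mfsd6 and Rfx5 lost their calls without the tissue-rich libraries (0.123, 0.052, 0.0975 and 0.0948).

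At ZT0 the clock genes Tef, Dbp, Per3 and Cry2 had the smallest p among the genes that rose, and Nr1d2 rose as well (2.18 ± 0.57 SE, adjusted p = 0.0374), so 5 of 15 clock genes were called (1% of all genes). Rgs16, a regulator of G protein signalling that responds to fasting, lay at 3.96, 5.26 and 1.56 log2 CPM in Equal light and at 7.54, 7.95 and 7.50 in Short light (adjusted p = 0.00609). The bile acid importer Slc10a1 lay at 9.47, 9.37 and 7.19 and at 9.92, 9.71 and 9.61 (0.0144). Among genes that fell, the kinase Map4k4 lay at 4.57, 4.23 and 6.14 and at 3.74, 3.77 and 3.23 (0.000336), and the matrix gene Col6a3 at 3.89, 3.52 and 6.87 and at 3.27, 3.40 and 3.84 (0.0255, and 0.0513 without the tissue-rich libraries). Equal light replicate 3 is extreme in each of these 4 genes, and it is 1 of the 2 libraries farthest from their group mean. Its CPM values summed to 818333, against 961878 and 941595 in the other 2 Equal light libraries, a trait whose part was also not tested. Its pancreas markers had a mean of 3.93 log2 CPM (-2.58 and -2.47 in the other 2 Equal light libraries) and those of Short light replicate 3 one of 3.85, and their part in the ZT0 calls was not tested. Without the 2 libraries farthest from their group mean 3 genes were called at ZT0, Dbp, Per3 and Tef.

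At ZT12 11 genes rose (0.0764%) and 21 fell (0.146%), and without the 9 libraries 474 were called. Slc25a32, the mitochondrial folate and FAD carrier, had the smallest p, with 5.57, 5.94, 5.39 and 4.88 log2 CPM in Equal light and 4.63, 4.69, 4.58 and 4.65 in Short light (adjusted p = 0.0162). The 4 Short light libraries lay below all 4 of Equal light. Hsp90ab1, described above, had the smallest among genes that rose (0.0241). The RNA-binding gene Hnrnpk and the helicase Ddx42 fell (0.0241 each), Hnrnpk with 7.71, 7.70, 7.73 and 7.72 in Equal light and 7.34, 7.44, 7.36 and 7.43 in Short light (0.0569 without the tissue-rich libraries). The only call at ZT16 was Ptch1, the Hedgehog receptor, at 6.28, 5.43, 6.05 and 6.05 in Equal light and at 5.22, 5.02, 4.92 and 5.04 in Short light. It fell by 0.90 (adjusted p = 0.011) with no overlap, and the call was made also without the 9 libraries (0.00829) and without the tissue-rich ones (0.0459), but not on leaving out replicate 1, 3 or 4 of every group.

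The same comparison on HFD gave a common shift of -3.54 h over the 732 genes, 730 of them earlier and 712 earlier on both diets. Both HFD arms of this comparison helped to choose these genes, while the LFD arms did not. The shift on LFD minus that on HFD was 0.29 h (two-sided permutation of diet labels within photoperiod and ZT, p = 0.667), and 0.67 h without the 9 libraries (p = 0.133), so a diet difference was not detected. Gene by gene, Cry1 had -2.94 h on LFD and -5.19 h on HFD, Nr1d1 -3.96 and -6.36 h, and Nfil3 -1.95 and -2.43 h. With limma 0 genes had a diet interaction of level (0%) and 0 one of the rhythm difference (0%), at 457 and 707 unadjusted p below 0.05, and voom also called 0 of each.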

How the data were processed

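The authors deposited 1 table of log2 CPM (counts scaled to library size) for 15398 genes over all libraries, and every value column was matched to a sample by the library number in its title. STAR, Subread 1.6.2 and featureCounts are the tools and mm10/GRCm38 the build that the submitters' processing notes name. For the normalization and for the use of strand in counting, the sources used here give nothing. The steps of the values allowed whole reads to be recovered for 99.5 to 99.73% of values in the 41 libraries (within 0.05 read). Replicates differed by more than sampling noise (51 pairs, chi-square at least 21.7 per degree of freedom).

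Since the table holds log2 values, limma 3.58.1 with a variance trend (R 4.3.3) was fitted to the libraries of all 6 arms and 14397 genes (at least 1 CPM in at least 3 libraries), with a mean per group for levels and a 24 h cosine and sine per arm for rhythms, and Benjamini-Hochberg adjustment over all genes. Contrasts used the 41 libraries. Permutations numbered 100000, and 10000 in alternatives. The fits were tested on simulated data. Symbols for 1400 of 1409 unnamed genes came from GENCODE mouse release 21. The members and gene lists were chosen with earlier results of these data known. Named were the 15 clock genes, genes with the smallest p in each comparison, the 6 widest reference genes outside the clock and up to 3 genes a list. Genes with the smallest p needed a mean log2 CPM of at least 2, except those for levels over all times and for the departure. Gene models without a proper symbol were left out, and other genes are said to be chosen after their values were seen. Alternatives were voom, another pseudocount, 2 filters, a covariate and fits on fewer libraries. Values of 1 clock gene and of 2 other genes are not reported here.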

Additional observations from a re-analysis of the deposited data

Results flagged for a closer look

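In groups of 4 libraries, the highest or lowest value was set against the range of its group (Dixon's criterion at the 95% level). Of 160 groups tested 23 were marked, and chance marks about 1 in 20. The library labelled Equal light ZT12 replicate 4 holds 11 of them. Its clock-read time lay 7.6 h after the label, and it stood apart for Npas2 (4.39 log2 CPM), Per3 (3.0), Cry1 (5.51), Nr1d1 (1.78), Nr1d2 (2.56), Dbp (0.72), Tef (5.91), Nr1h4 (6.93), Loxl4 (4.50) and Chka (8.15). The library labelled Short light ZT16 replicate 4 holds 6, for Arntl (3.72), Npas2 (-2.06), Per3 (5.99), Dbp (4.11), Loxl4 (0.70) and Chka (5.97). The others were Plekhb2 in Short light ZT16 replicate 3 (4.21), Rab43 in Short light ZT20 replicate 3 (2.41), Nr1h4 in Equal light ZT16 replicate 4 (6.82), Cdkn1a in Short light ZT20 replicate 1 (2.57), Usp2 in Short light ZT12 replicate 4 (5.47) and Chka in Equal light ZT16 replicate 3 (6.09). Groups of 3 were not tested, so the library labelled Short light ZT0 replicate 3 could not be marked.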

How the results depend on the processing

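Over all alternatives 184 of 242 summary values kept their direction and size, 57 counts moved by more than 1.5 times and 1 value changed sign; of 324 values of single genes 268 were alike, 51 lost and 5 gained a call and 0 changed sign. All 195 clock gene shifts in the alternatives were earlier, from -7.29 to -0.99 h. The following counts moved. With voom, ZT16 had 2 calls (Ptch1 and Ripk1); with log2(CPM + 1), ZT0 had 303. With a mean of at least 5 CPM, 1 gene (Zfp217) had a diet interaction of rhythm. With only the 41 libraries, levels gave 0, ZT0 24, ZT12 132 and the rhythm difference 168. Without the muscle-rich and pancreas-rich libraries, levels gave 0, ZT0 51, ZT8 29, ZT12 12, the rhythm difference 244, departure and amplitude 1 each (Gm28151) and the diet interaction of rhythm 1. Without the 2 farthest libraries (Equal light ZT0 replicate 3 and ZT12 replicate 4), levels gave 0, ZT0 3 and ZT12 265. With the library number as covariate, levels gave 3 (C2cd5, Ttll1 and Gm45716) and the diet interaction of rhythm 1. Without the 9 off-label libraries, levels gave 0, ZT0 271, ZT4 66, ZT8 1110, ZT12 474, ZT16 46, ZT20 2 (among them Nr1d1), the rhythm difference 1723, amplitude 2 and timing 1. The causes were not tested.

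Leaving out replicate 1, 2, 3 or 4 of every group in turn, the common shift ranged from -3.76 to -2.75 h and the clock shift from -3.86 to -2.89 h. Counts ranged from 0 to 506 at ZT0, 0 to 5 at ZT4, 6 to 691 at ZT8, 0 to 269 at ZT12, 0 to 4 at ZT16, 0 to 0 for levels, 0 to 1165 for the rhythm difference, 1051 to 3175 and 1611 to 3798 for rhythms in Equal and Short light, 0 to 1 for timing and 0 to 1 for the diet interaction of rhythm. The diet difference of the common shift ranged from -0.29 to 0.94 h and turned negative without replicate 4 (permutation p = 0.651). Terms of 12 h, a free interaction of time with photoperiod, other reference sets and other shift sizes left their results alike. No paired analysis was possible because replicate numbers are in accession order and only name libraries. With 3 or 4 libraries a group, the median 95% half-width was 0.408 log2 at ZT8, and differences smaller than this were mostly not detectable.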
